A study of Homo sapiens with 6 samples.

Results

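AGR2, CLCA2 and a group of epithelial mucin genes were examined in SW780 cells exposed to RC48. The 7 members were SPDEF, AGR2, CLCA2, MUC1, MUC4, MUC16 and MUC20, taken by gene symbol from the 16390 genes listed in the count tables, and 6 of the 7 had a row there. AGR2 and CLCA2 were chosen by their lower counts after RC48 in these same libraries, so their differences between the groups are a description. Why the other 5 were listed is not recorded, and they too were chosen with earlier results of these data known.

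SW780 is an established line of human bladder cancer, used by the study to represent the luminal type. RC48 (disitamab vedotin) is an antibody-drug conjugate in which an antibody against ERBB2 carries the microtubule inhibitor monomethyl auristatin E. The Control group was 3 libraries of SW780 and the RC48 group was 3 libraries of the same line exposed to RC48 at 25 µg/ml, a dose given in the study's methods. The exposure time of this experiment and the treatment of the Control cells are not given in the sources used here, and nothing states that replicates came from separate cultures, so p-values measure the spread between these libraries.

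AGR2 is a protein disulfide isomerase of the endoplasmic reticulum that mucin-secreting cells need to fold and export mucins. SPDEF is an ETS family transcription factor that drives secretory cell differentiation in airway and intestine, where AGR2 is one of the genes of its program. CLCA2 is a transmembrane protein of the family of calcium-activated chloride channel regulators and is found in stratified epithelia. MUC1, MUC4, MUC16 and MUC20 are membrane-bound mucins, large glycoproteins that carry dense O-linked sugars on the cell surface, and MUC4 can bind ERBB2, the target of RC48.

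The 250 bases before the transcript start are shown for AGR2 and CLCA2, which were lower after RC48, and for MUC1, which was higher. They were taken from RefSeq on GRCh38.p14, each 5′ to 3′ on the strand of its gene, and 6 of the 7 members had an entry (all but MUC20). AGR2 is at chr7:16805000-16805249 on the minus strand, CLCA2 at chr1:86423921-86424170 on the plus strand and MUC1 at chr1:155192916-155193165 on the minus strand. The AGR2 window lies wholly inside the span that GENCODE gives for the gene. The CLCA2 window runs past the GENCODE start of its gene, at base 86424086. Capitals mark matches to a TATA box or to a STAT motif.
AGR2: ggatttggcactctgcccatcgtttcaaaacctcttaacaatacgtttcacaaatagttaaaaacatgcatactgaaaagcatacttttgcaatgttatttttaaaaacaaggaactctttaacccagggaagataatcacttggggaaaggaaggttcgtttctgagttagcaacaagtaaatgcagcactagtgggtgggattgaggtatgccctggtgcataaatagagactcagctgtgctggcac
CLCA2: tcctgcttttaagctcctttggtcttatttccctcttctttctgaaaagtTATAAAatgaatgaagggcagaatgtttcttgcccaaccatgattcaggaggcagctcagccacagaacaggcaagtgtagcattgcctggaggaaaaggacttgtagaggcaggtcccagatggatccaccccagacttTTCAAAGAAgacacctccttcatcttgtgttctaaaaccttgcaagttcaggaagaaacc
MUC1: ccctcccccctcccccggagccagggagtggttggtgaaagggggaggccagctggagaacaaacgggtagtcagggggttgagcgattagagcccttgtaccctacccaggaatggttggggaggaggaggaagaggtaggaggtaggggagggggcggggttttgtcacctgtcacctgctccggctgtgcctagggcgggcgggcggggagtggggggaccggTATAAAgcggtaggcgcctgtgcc

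The windows of AGR2 and CLCA2 were poorer in G and C than that of MUC1. Their GC content was 40.4% and 44.8%, against 66.0% for MUC1 and a median of 58.0% over 27305 promoters. Both strands were searched for a forkhead motif (TGTTTAC), a STAT motif (TTCNNNGAA), a TATA box (TATAAA), an ETS motif (CCGGAA) and an NF-κB motif, none of which contains another. The window of CLCA2 held the STAT letters starting 60 bases before the RefSeq start, and 6.78% of all promoters hold them somewhere in this window. In CLCA2 these STAT letters lie past the GENCODE start. Its window also held the TATA letters starting 200 bases before the RefSeq start. The window of MUC1 held the TATA letters starting 24 bases before the start, and 11.1% of all promoters hold these letters. MUC4, which is not printed, held the STAT letters starting 11 bases before its RefSeq start, in a window wholly inside its GENCODE span. The MUC16 window (chr19:9065752-9066001) lies outside the GENCODE span of its gene, bases 8848844 to 8981342. The windows of AGR2, SPDEF and MUC16 held no match to any of the 5 motifs, of which the forkhead, ETS and NF-κB motifs are held by 2.98%, 14.8% and 9.57% of all promoters. A match in letters is a description of the window and not a binding site.

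The genes lie on 5 chromosomes (GENCODE release v29, GRCh38, the build that the submitters' processing notes name as hg38). AGR2 (NCBI gene 10551) spans bases 16791811 to 16833433 of chromosome 7 on the minus strand, 26.0 kb from its closest relative AGR3. CLCA2 (NCBI gene 9635) spans bases 86424086 to 86456558 of chromosome 1 on the plus strand, and its relatives CLCA1 and CLCA4 follow in the same orientation. SPDEF (NCBI gene 25803) spans bases 34537802 to 34556333 of chromosome 6, and MUC1 (NCBI gene 4582) spans bases 155185824 to 155192916 of chromosome 1, both on the minus strand. MUC20 (NCBI gene 200958, plus strand, bases 195720882 to 195741123) and MUC4 (NCBI gene 4585, minus strand, bases 195746765 to 195812277) are neighbours on chromosome 3, with 5.6 kb between them. Of the exon bases of MUC20, 42.8% also belong to the non-coding gene MUC20-OT1 on the same strand, which has no row in the tables, so reads of the pair cannot be told apart here and the level of MUC20 is uncertain to that extent. The pseudogene MUC20P1 has no row either.

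The libraries held 16453233 to 17988030 estimated read counts each, the highest total being 1.09 times the lowest. The chi-square per degree of freedom, near 1 where libraries differ by sampling noise alone, was 1.48 between Control replicates 1 and 2, 9.32 and 11.4 between each of them and Control replicate 3, and 21.7 to 131 between RC48 replicates. The RC48 libraries stood apart by a trend with GC content. With the tested genes ordered by transcript GC content and split into 10 groups, the median log2 ratio of the GC-poorest group to the Control mean was −0.99 in RC48 replicate 1, 0.02 in replicate 2 and −0.39 in replicate 3. The GC-richest group had medians of 0.66, 0.01 and 0.24. The transcripts of AGR2 and CLCA2 had GC contents of 41.6% and 40.0%, below the median of 50.6%, and those of MUC1 and MUC20 had 55.8% and 60.0%. Each tested member is therefore given with and without a correction for this trend.

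AGR2 was lower after RC48 in every library. Its level was 77.1, 75.4 and 65.5 CPM (counts scaled to a common, TMM-normalised library size) in Control replicates 1, 2 and 3, and 20.4, 28.2 and 29.9 CPM in RC48 replicates 1, 2 and 3. All 3 RC48 libraries were below all 3 Control libraries, and the lowest was RC48 replicate 1. The mean went from 72.7 ± 6.30 to 26.2 ± 5.08 CPM (SD, n = 3 each), so that the Control mean was 2.78 times the RC48 mean. These CPM rest on 3748 counts in Control and 1368 after RC48. The log2 fold change fitted by edgeR was −1.47 (standard error 0.17, 95% interval −1.88 to −1.07), and with the correction for GC content it was −1.20 (standard error 0.12).

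CLCA2 followed AGR2 closely in size and in order of the groups. It was measured at 15.0, 16.2 and 15.7 CPM in Control replicates 1, 2 and 3, and at 5.22, 6.80 and 6.12 CPM in RC48 replicates 1, 2 and 3. The Control libraries lay close together, and every RC48 library was below them. The mean was 15.6 ± 0.595 CPM in Control, 2.59 times the 6.05 ± 0.789 CPM of the RC48 group (SD, n = 3 each). The fitted log2 fold change was −1.37 (standard error 0.16, 95% interval −1.73 to −1.01), and −1.03 (standard error 0.13) with the correction for GC content. In bulk RNA such as this, fewer cells that express a gene and less RNA of it per cell cannot be told apart.

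**Figure D1:**
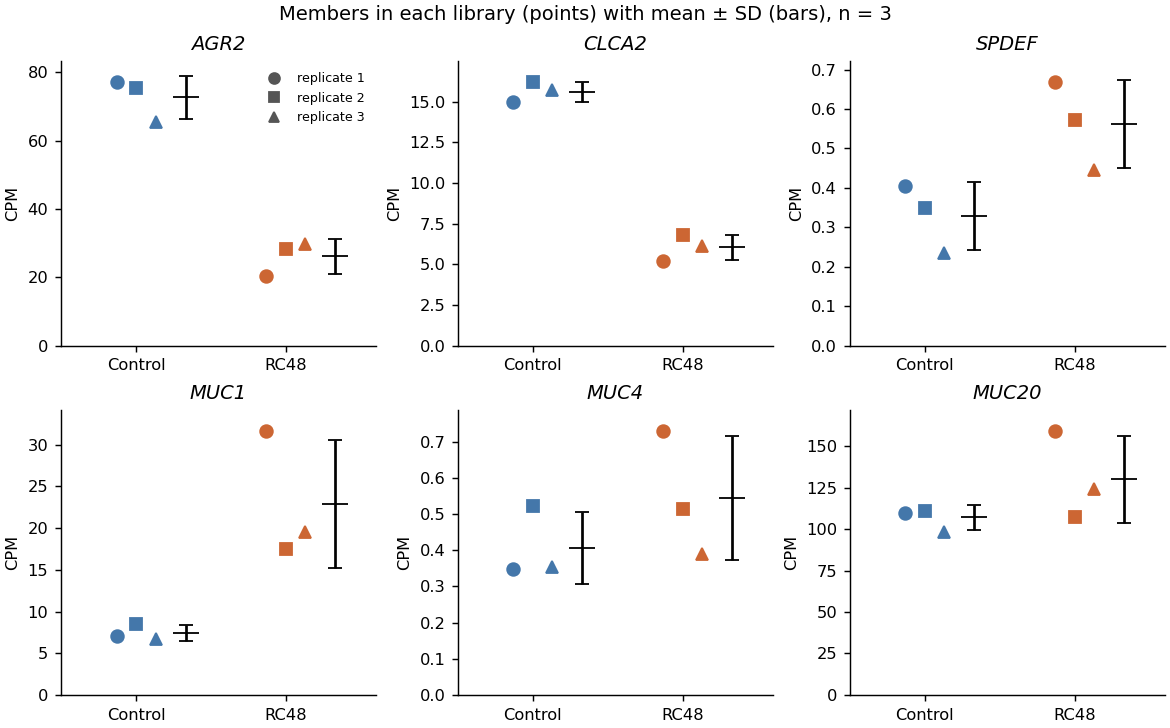
Level of the 6 listed members in CPM (vertical axes, each starting at 0) in the 3 Control libraries (blue) and the 3 RC48 libraries (orange). Circles, squares and triangles are replicates 1, 2 and 3, and the bars beside them are the mean ± SD (n = 3). AGR2 and CLCA2 were lower in every RC48 library, MUC1 was higher in every RC48 library, and the groups of MUC4 and MUC20 overlapped.

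Both genes were called lower by edgeR's quasi-likelihood test, in the same libraries whose lower counts chose them. Of 13055 genes tested, 30 (0.23%) were called lower and 258 (1.98%) higher at a Benjamini-Hochberg adjusted p-value under 0.05. By log2 fold change, AGR2 was in place 6 and CLCA2 in place 8 of the 30. Among all genes tested, 14.1% had every RC48 library below every Control library. Since these values chose the pair, nothing is read from the shares. The call of AGR2 was lost without Control replicate 1 (adjusted p = 0.0501, edgeR), and that of CLCA2 was lost without Control replicate 3 (adjusted p = 0.0527, edgeR). Of the 20 alternative analyses, AGR2 was called in 18 with a log2 fold change of −1.71 to −1.20, and CLCA2 in 19 with −1.55 to −1.03.

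SPDEF was barely detected. It had 7, 6 and 4 counts in Control replicates 1, 2 and 3, and 11, 10 and 8 counts in RC48 replicates 1, 2 and 3. On the CPM scale, this was 0.405, 0.348 and 0.236 CPM against 0.668, 0.571 and 0.445 CPM, and the groups did not overlap. The 29 counts after RC48 against 17 in Control gave a ratio of 1.69 after scaling to library size, with an exact 95% interval of 0.90 to 3.28 that covers counting error only. An exact two-sided permutation test gave p = 0.1 (n = 3 each), the smallest that 3 libraries against 3 allow. SPDEF did not pass the filter on low counts, and without the filter edgeR gave 0.74 on the log2 scale (SE 0.40, adjusted p = 0.351, edgeR). A difference in SPDEF was not detectable at this depth.

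MUC1, the best studied membrane-bound mucin of glandular epithelia and urothelium, was higher after RC48. It was measured at 7.11, 8.52 and 6.71 CPM in Control replicates 1, 2 and 3, and at 31.6, 17.5 and 19.5 CPM in RC48 replicates 1, 2 and 3. The lowest RC48 library was above the highest Control library, and RC48 replicate 1 stood well above the other RC48 libraries. The mean went from 7.45 ± 0.948 to 22.9 ± 7.67 CPM (SD, n = 3 each), 3.07 times the Control mean. The fitted log2 fold change was 1.62 (standard error 0.25, 95% interval 1.04 to 2.20, adjusted p = 0.0191, edgeR). In the same direction, 1.98% of all genes were called and 17.4% had every RC48 library above every Control library, and MUC1 was in place 94 of the 258 called higher. Whether its value played a part in the choice of members is not recorded, so its p-value supports nothing further.

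The rise of MUC1 kept its direction in all 20 alternative analyses (log2 fold change 1.20 to 1.77), but its call did not hold in 6 of them. It was lost without Control replicate 1 (adjusted p = 0.127), Control replicate 2 (0.0911), Control replicate 3 (0.166) or RC48 replicate 3 (0.0632) in edgeR. It was also lost with Control replicates 1 and 2 counted as 1 library (adjusted p = 0.102, edgeR) and on the log2(TPM + 0.1) scale in limma (adjusted p = 0.0616). After the GC correction its fitted value was 1.37 on the log2 scale (standard error 0.16, adjusted p = 0.00175, edgeR).

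MUC20, a smaller membrane-bound mucin that binds the receptor MET, was the most abundant mucin among the members. It was measured at 110, 111 and 98.2 CPM in Control replicates 1, 2 and 3, and at 159, 107 and 124 CPM in RC48 replicates 1, 2 and 3. RC48 replicate 1 was the highest of the 6 libraries, whereas RC48 replicate 2 lay among the Control libraries, so the groups overlapped. Mean levels were 107 ± 7.24 CPM (Control) and 130 ± 26.3 CPM (RC48; SD, n = 3 each). RC48 against Control gave a log2 fold change of 0.29 (SE 0.16, 95% interval −0.09 to 0.67, adjusted p = 0.317, edgeR). With the correction for GC content it was −0.02 (standard error 0.08, 95% interval −0.19 to 0.15, adjusted p = 0.872, edgeR). Both bounds of the corrected interval are smaller in size than the changes fitted for AGR2, CLCA2 and MUC1.

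MUC4, the mucin that can bind ERBB2, had 6, 9 and 6 counts in Control replicates 1, 2 and 3, and 12, 9 and 7 counts in RC48 replicates 1, 2 and 3. This was 0.347, 0.521 and 0.353 CPM against 0.729, 0.514 and 0.390 CPM, and the groups overlapped. The ratio of RC48 to Control was 1.32, with an exact 95% counting interval of 0.725 to 2.45, and the exact two-sided permutation test gave p = 0.3 (n = 3 each). No difference was detectable at this depth. MUC16, the mucin that carries the CA125 antigen, had no row in the tables and is counted as not detected, with no limit on its level. All 16390 genes listed had at least 1 count in some library.

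**Figure D2:**
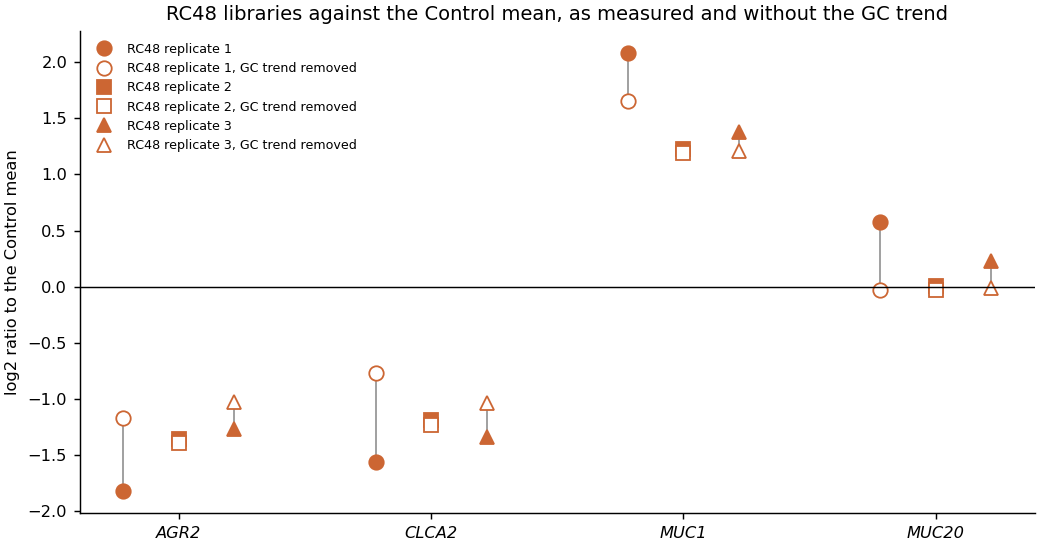
Log2 ratio of every RC48 library to the Control mean (vertical axis) for the 4 members that passed the filter on low counts. Filled points are the ratios as measured and open points those after the GC trend of the library was subtracted, joined by a grey line. AGR2 and CLCA2 stay below 0 and MUC1 above 0 in every library, while the 3 open points of MUC20 lie between −0.03 and −0.01.

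Taken library by library, the 4 tested members were set beside the GC trend. For AGR2, the log2 ratio to the Control mean was −1.82, −1.36 and −1.27 in RC48 replicates 1, 2 and 3. The trend at its GC content was −0.65, 0.03 and −0.24, which left −1.17, −1.39 and −1.03. For CLCA2 the ratios were −1.56, −1.19 and −1.34, and −0.77, −1.23 and −1.04 were left after the trend. The lowest library before the correction, RC48 replicate 1, was no longer the lowest after it for either gene.

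For MUC1 the log2 ratios were 2.08, 1.23 and 1.38 in RC48 replicates 1, 2 and 3, and 1.65, 1.19 and 1.21 after the trend was subtracted. RC48 replicate 1 remained the highest library. For MUC20 the ratios were 0.58, 0.01 and 0.23, and the trend at its GC content was 0.61, 0.04 and 0.24, so that −0.03, −0.03 and −0.01 were left. The ratio of MUC20 was thus about as large as the trend in each library.

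RC48 replicate 2 had almost no GC trend and was also set alone against the 3 Control libraries, an analysis added after the data were seen. The log2 fold changes in edgeR were −1.38 for AGR2, −1.21 for CLCA2, 1.22 for MUC1 and 0.00 for MUC20. This fit assumes that the single RC48 library varies like the Control libraries. With the correction for GC content over all 6 libraries, 419 genes (3.21% of those tested) were called lower and 547 (4.19%) higher, and AGR2, CLCA2 and MUC1 were among them.

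**Figure D3:**
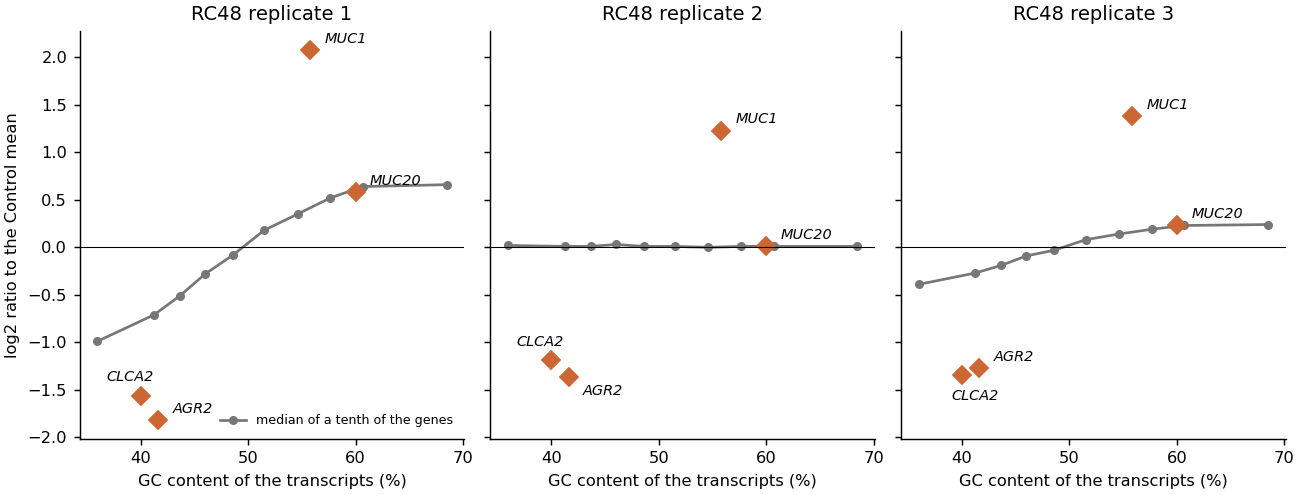
Log2 ratio to the Control mean (vertical axis) against the GC content of the transcripts in percent (horizontal axis), 1 panel per RC48 replicate. Grey points joined by a line are the medians of 10 groups of genes ordered by GC content, and orange diamonds are the tested members. The line climbs from −0.99 to 0.66 in replicate 1 and from −0.39 to 0.24 in replicate 3 and is flat in replicate 2, MUC20 sits on it, and AGR2, CLCA2 and MUC1 sit off it in every panel.

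Levels were compared between genes on the deposited TPM scale, which accounts for gene length, in the 5 libraries for which TPM was used, RC48 replicates 1 and 3 and the 3 Control libraries. In Control, MUC20 was the most abundant at 108 ± 2.06 TPM and AGR2 came next at 92.1 ± 3.33 TPM (SD, n = 3). MUC1 followed at 10.3 ± 0.960 TPM and CLCA2 at 7.58 ± 0.501 TPM, and SPDEF at 0.36 ± 0.0755 TPM and MUC4 at 0.203 ± 0.0416 TPM came last (SD, n = 3). None of the neighbours in this order overlapped in their Control libraries. By mean Control TPM, MUC20 had rank 1597 and AGR2 rank 1861 of the 16390 genes, MUC1 had rank 8658 and CLCA2 rank 9384, and SPDEF and MUC4 had ranks 13091 and 13592.

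In RC48 replicates 1 and 3, the TPM ranges of MUC1 and AGR2 overlapped. AGR2 was at 22.06 and 35.72 TPM and MUC1 at 37.30 and 24.40 TPM in these libraries. Both libraries carry the GC trend, which at the GC content of AGR2 was −0.65 and −0.24 and at that of MUC1 0.43 and 0.18 on the log2 scale, and RC48 replicate 2, with almost no trend, has no TPM here. MUC20 remained above both, at 139.58 and 119.36 TPM. CLCA2 was at 2.25 and 2.82 TPM, SPDEF at 0.63 and 0.46 TPM and MUC4 at 0.27 and 0.19 TPM, in the same order as in Control. The TPM of AGR2 was 9.35, 8.21 and 9.44 times that of MUC1 in Control replicates 1, 2 and 3, and 0.591 and 1.46 times in RC48 replicates 1 and 3. The place of MUC1 above AGR2 rested on RC48 replicate 1 and turned around without it. The TPM of MUC1 was 1.16 to 1.48 times that of CLCA2 in the Control libraries, and 16.6 and 8.65 times in RC48 replicates 1 and 3.

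**Figure D4:**
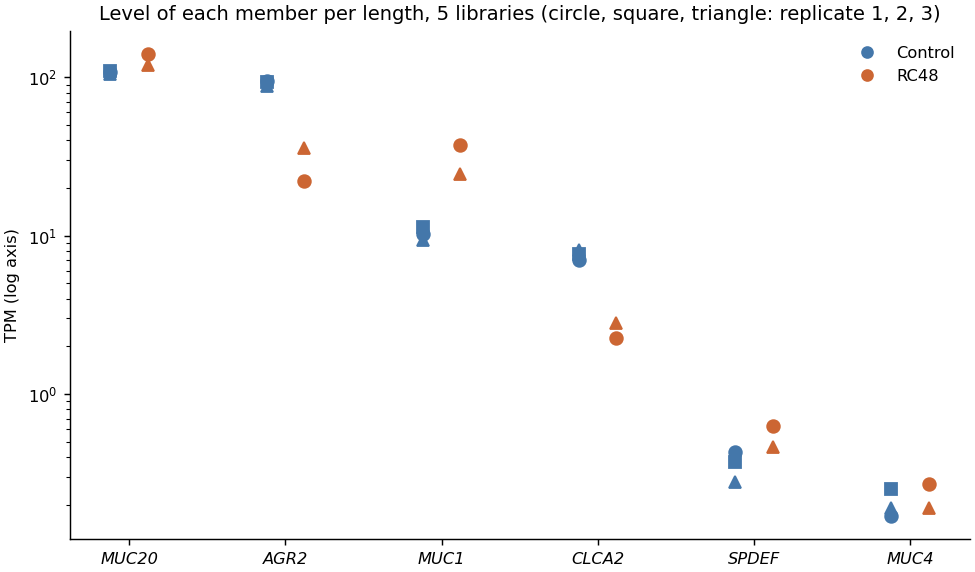
Deposited TPM of each listed member (vertical log axis) in the 3 Control libraries (blue) and in RC48 replicates 1 and 3 (orange), ordered by the Control mean. Circles, squares and triangles are replicates 1, 2 and 3. AGR2 goes from about the level of MUC20 in Control (92.1 against 108 TPM) to that of MUC1 in RC48 replicates 1 and 3 (28.9 against 30.8 TPM), both of which carry the GC trend.

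The closest relative of CLCA2 that was measured was lower as well. CLCA4, a further chloride channel regulator of the same chromosome 1 cluster, was at 50.3, 49.9 and 55.0 CPM in Control replicates 1, 2 and 3, and at 19.6, 29.2 and 26.4 CPM in RC48 replicates 1, 2 and 3. The groups did not overlap, and the mean went from 51.7 ± 2.84 to 25.1 ± 4.96 CPM (SD, n = 3 each). RC48 against Control gave a log2 fold change of −1.04 (SE 0.17, adjusted p = 0.0241, edgeR), and −0.66 (adjusted p = 0.0100, edgeR) with the correction for GC content. The GC content of its transcripts was 38.4%, within the GC-poorest group. CLCA4 was called in 13 of the 20 alternatives and lost its call without any 1 Control replicate or without RC48 replicate 3, with adjusted p-values up to 0.166. CLCA1 had no row.

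Further lists of related genes were read against all 13055 genes tested, of which edgeR called 2.21% in either direction and 19.1% had an unadjusted p-value under 0.05. Of 20 listed relatives of AGR2, genes for protein disulfide isomerases and other retention and oxidation proteins of the endoplasmic reticulum, 18 were tested. In edgeR without the GC correction, 0 of the 18 were called and 1 had an unadjusted p-value under 0.05. DESeq2 and the GC correction each called 1 higher, beside 744 and 966 over all genes. Voom called 3 higher and 7 lower, beside 8018, and edgeR without RC48 replicate 2 called 1 higher and 4 lower, beside 3726. The median log2 fold change of the 18 was −0.14 in edgeR, beside 0.02 over all genes tested, and the values ran from −0.59 to 0.66. P4HB, the archetypal protein disulfide isomerase, was at 863 ± 58.2 CPM in Control and 915 ± 80.2 CPM after RC48 (SD, n = 3 each, log2 fold change 0.09, adjusted p = 0.648, edgeR). KDELR1, a receptor that returns proteins to the endoplasmic reticulum, was at 323 ± 21.6 and 327 ± 4.98 CPM (log2 fold change 0.02, adjusted p = 0.916, edgeR). AGR3, next to AGR2 on chromosome 7, had 1 count over all 6 libraries.

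Of 25 genes of the secretory program around SPDEF, 23 had a row and 16 were tested. In edgeR without the GC correction, 0 of the 16 were called and 5 had an unadjusted p-value under 0.05, beside 19.1% over all genes. DESeq2, the replicate block and the GC correction each called 1 higher, beside 744, 331 and 966 over all genes. The block with the correction called 1 lower, beside 702. Voom called 3 higher and 4 lower, beside 8018. EdgeR without RC48 replicate 1 called 1 higher and 1 lower, beside 897, and without RC48 replicate 2 called 2 higher and 4 lower, beside 3726. Limma on log2(TPM + 1) called 1 lower, beside 242. It used no filter on low counts, so its counts are not out of the 16 or the 13055. The median log2 fold change was −0.06. KLF5, an epithelial transcription factor, was at 355 ± 6.75 CPM in Control and 242 ± 64.4 CPM after RC48 (SD, n = 3 each), with no overlap between the groups but a log2 fold change of −0.55 that did not pass the test (adjusted p = 0.194, edgeR). LYPD3, a surface protein of stratified epithelium, was at 182 ± 5.58 and 218 ± 73.9 CPM (log2 fold change 0.26, adjusted p = 0.464, edgeR).

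Other mucins were scarce in SW780. Of 16 in the list, 13 had a row, 5 passed the filter on low counts and 0 were called by edgeR, with a median log2 fold change of −0.17. Of the 5, 1 had an unadjusted p-value under 0.05, beside 19.1% over all genes. Voom called 2, DESeq2 called 0, and edgeR without RC48 replicate 2 called 1, beside 8018, 744 and 3726 over all genes. MUC2, the main gel-forming mucin of the intestine, was at 3.90 ± 0.736 CPM in Control and 6.48 ± 4.2 CPM after RC48 (SD, n = 3 each), and RC48 replicate 1, at 11.2 CPM, was the highest library (log2 fold change 0.73, adjusted p = 0.332, edgeR). OVGP1, oviductal glycoprotein, was at 3.36 ± 0.640 and 3.0 ± 0.593 CPM (log2 fold change −0.17, adjusted p = 0.649, edgeR).

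The list of enzymes for the O-linked sugars of mucins was well represented, with 33 of 34 tested. In edgeR without the GC correction, 1 of the 33 was called (2.21% over all genes), GALNT18 of the family that adds the first sugar. DESeq2 called 2 higher and the GC correction 4 higher, beside 744 and 966 over all genes. Voom called 11 higher and 11 lower, beside 8018, and edgeR without RC48 replicate 2 called 5 higher and 2 lower, beside 3726. GALNT18 was at 4.28, 5.62 and 3.95 CPM in Control replicates 1, 2 and 3. It was at 10.8, 9.25 and 9.35 CPM in RC48 replicates 1, 2 and 3, with no overlap. RC48 against Control gave a log2 fold change of 1.09 (SE 0.19, adjusted p = 0.0298, edgeR) and 0.84 with the correction for GC content (adjusted p = 0.0164, edgeR). It lost its call in the same 7 of 20 alternatives as CLCA4, the ones without any 1 Control replicate or without RC48 replicate 3 among them, with adjusted p-values up to 0.202. GALNT1, the most abundant enzyme of the list, was at 427 ± 7.30 CPM in Control and 430 ± 158 CPM after RC48 (SD, n = 3 each, log2 fold change 0.01, adjusted p = 0.983, edgeR). ST3GAL4, a sialyltransferase, was at 125 ± 2.67 and 132 ± 18 CPM (log2 fold change 0.08, adjusted p = 0.7, edgeR). The median of the list was 0.01, and 10 of the 33 had an unadjusted p-value under 0.05 in edgeR, beside 19.1% over all genes.

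Of 21 partners of mucins and proteases that shed them, 18 were tested, with a median log2 fold change of 0.20. In edgeR without the GC correction, 0 of the 18 were called and 4 had an unadjusted p-value under 0.05, beside 19.1% over all genes. DESeq2 called 1 higher and the GC correction 2 higher, beside 744 and 966 over all genes. Voom called 11 higher and 3 lower, beside 8018, and edgeR without RC48 replicate 2 called 4 higher and 1 lower, beside 3726. LGALS3BP, a secreted galectin ligand, was at 571 ± 47.1 CPM in Control and 674 ± 98.5 CPM after RC48 (SD, n = 3 each, log2 fold change 0.24, adjusted p = 0.331, edgeR). EZR, which ties membrane proteins to actin, was at 520 ± 11.7 and 451 ± 35.0 CPM (log2 fold change −0.21, adjusted p = 0.306, edgeR). ERBB2, the target of RC48 and the partner of MUC4, is added here as the drug's target after its values were seen. It was at 203, 208 and 204 CPM in Control replicates 1, 2 and 3 and at 277, 185 and 225 CPM in RC48 replicates 1, 2 and 3, with overlapping groups and a log2 fold change of 0.16 (adjusted p = 0.519, edgeR).

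**Figure D5:**
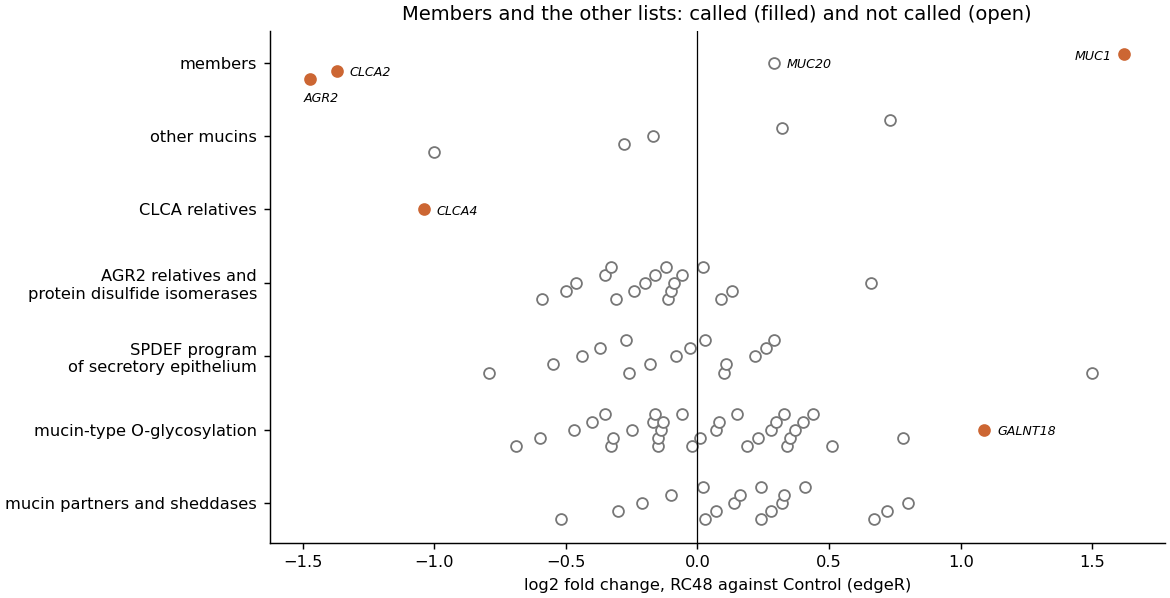
Log2 fold change of RC48 against Control (horizontal axis, edgeR) for the tested members and the tested genes of the 6 other lists (rows). Filled orange points were called at an adjusted p-value under 0.05 and open points were not, and the vertical spread within a row only separates points. In this fit AGR2 (−1.47), CLCA2 (−1.37) and CLCA4 (−1.04) were called lower, and MUC1 (1.62) and GALNT18 (1.09) higher.

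The genes whose pattern over the 6 libraries was most like that of AGR2 were CDCA7, CLCA2 and GJA1. Likeness was the root mean square distance between log2 CPM values centred on the Control mean, over 9996 tested genes with a mean of at least 10 CPM. The distance to AGR2 was 0.146 for CDCA7, a cell division cycle associated gene, 0.156 for CLCA2 and 0.296 for GJA1, which encodes the gap junction protein connexin 43. For CLCA2 the nearest were GJA1 at 0.153, AGR2 at 0.156 and CDCA7 at 0.191, so CDCA7 and GJA1 were near both. CDCA7 went from a mean of 33.4 to 11.4 CPM (n = 3 each) and GJA1 from 14.1 to 6.23 CPM (n = 3 each). These patterns share the libraries that chose AGR2 and CLCA2, and genes of like GC content share the trend, so they are a description.

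Markers of the labelled cell type were detected, with UPK3A near 0 in Control. All 8 epithelial markers had a row and summed to 11800 to 13600 CPM in the Control libraries and 13600 to 18500 CPM in the RC48 libraries. Of these 8, edgeR called 0 without the GC correction and 1 with it, EPCAM, which was lower (corrected log2 fold change −0.45, adjusted p = 0.0467, edgeR). The 11 urothelial markers summed to 989 to 1000 CPM and to 894 to 1030 CPM, but UPK3A, a uroplakin, had 5 counts over the Control libraries and 0 in Control replicate 3. Of the 10 urothelial markers tested, 9 were not called by edgeR, and the median log2 fold change was 0.05. Over all genes tested, 2.21% were called. Every RC48 library was below Control for 3 of the 11 and above it for 1, beside 14.1% and 17.4% of all genes tested. With the GC correction the median was −0.14, and KRT20 and UPK1B were called lower (adjusted p = 0.0213 and 0.0210, edgeR), beside 3.21% of all genes. The marker called without the correction was KRT20, a keratin of the urothelial surface layer, with 102 counts in Control and 35 after RC48. It was at 1.98 ± 0.0439 and 0.667 ± 0.290 CPM (SD, n = 3 each, log2 fold change −1.55, adjusted p = 0.0489, edgeR).

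Markers of other cell types were low or mixed. Leukocyte markers, of which 9 of 12 had a row, summed to 18.6 to 19.0 CPM in Control and 23.1 to 43.1 CPM after RC48, most of it CD68. PTPRC, which all leukocytes express, was at 0 in every Control library and at most 0.0607 CPM in an RC48 library. Of the 9 with a row, 4 were higher and 0 lower in every RC48 library, beside 17.4% and 14.1% of all genes tested. The median log2 fold change of the 6 tested was 0.97. ITGAM was called higher (0.0966 ± 0.167 to 3.63 ± 0.554 CPM, SD, n = 3 each, log2 fold change 5.12, adjusted p = 0.00740, edgeR). CD68 (16.8 and 24.2 CPM), CD3E (0.311 and 0.991 CPM) and CD14 (0.349 and 0.955 CPM) were higher but not called (adjusted p = 0.274, 0.113 and 0.161, edgeR). Goblet cell markers, of which 5 of 8 had a row, summed to 4.16 to 6.06 and 4.85 to 14.9 CPM. The 8 of 9 fibroblast markers with a row summed to 448 to 478 and 453 to 568 CPM with PDGFRA at 0 in Control, and 1 of the 4 tested, FAP, was called higher (3.74 ± 0.387 to 9.31 ± 1.45 CPM, SD, n = 3 each, log2 fold change 1.31, adjusted p = 0.0128, edgeR). Of the 8 fibroblast markers with a row, 3 were higher and 1 lower in every RC48 library. Over all genes tested, 17.4% were higher and 14.1% lower in this way, and edgeR called 1.98% higher. Higher besides FAP were COL3A1, the most abundant (280 ± 18.2 and 412 ± 47.6 CPM, log2 fold change 0.55, adjusted p = 0.0843, edgeR), and COL1A1 (9.80 ± 0.539 and 16.3 ± 3.69 CPM, SD, n = 3 each). The lower one was LUM (168 ± 3.10 and 92.2 ± 23.2 CPM, SD, n = 3 each, log2 fold change −0.86, adjusted p = 0.0688, edgeR). The 6 of 7 endothelial markers with a row summed to 27.9 to 29.7 and 18.4 to 25 CPM with KDR and TEK at 0 in Control. With the GC correction, edgeR called ITGAM and FAP higher again. It also called 2 of the 3 endothelial markers tested lower (PECAM1 and VWF) and 1 of the 2 goblet cell markers tested higher (FCGBP). Over all genes, this fit called 3.21% lower and 4.19% higher. The part of these markers in the values of AGR2, CLCA2 and MUC1 was not tested.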

How the data were processed

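Total RNA of SW780 cells was sequenced in 3 Control and 3 RC48 libraries by BGI. Reads were filtered by the authors (SOAPnuke) and mapped with Bowtie2, and the authors estimated counts per gene with RSEM, on hg38 per the submitters' processing notes. Versions, the annotation and the strand of the kit are not given in the sources used here. The deposited values are RSEM's estimated counts without normalization, of which 11.7% to 15.0% per library are not whole. The authors also deposited TPM values, which account for gene length and sequencing depth. TPM of RC48 replicate 2 was not used here. All rows are of the type mRNA.

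Rounding made the estimated counts whole. They were then filtered with filterByExpr, normalized by TMM and tested for RC48 against Control with edgeR 4.0.16 (quasi-likelihood test, Benjamini-Hochberg adjustment over 13055 genes, threshold 0.05, R 4.3.3). The study's methods name limma on log2(TPM + 1), which is an alternative here because it covers 5 libraries only. Limma was run on every gene with TPM above 0 in some library, without the filter on low counts. Folds are from the edgeR fit. Their standard errors were computed as the absolute log2 fold change over the square root of the F statistic. The 95% intervals on folds use these standard errors and a t quantile. CPM are from TMM library sizes (log2 CPM with a prior count of 2), and intervals on ratios of summed counts are exact binomial 95% intervals. GC content came from GENCODE v29 transcripts for 16321 genes (99.6%), and its loess trend (span 0.3) per library was subtracted as an edgeR offset. Summaries and figures were made with Python 3.11.15, numpy 2.4.6, pandas 2.3.3, scipy 1.17.1 and matplotlib 3.10.9.

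The members, lists and alternatives were chosen with earlier results of these data known. Named were all members, in each of 6 other lists the called genes and the 2 with the highest mean Control TPM, the 3 genes nearest to AGR2 and to CLCA2, and markers where a check turned on them. The alternatives were DESeq2 1.42.0, limma 3.58.1 on log2(TPM + 1) and log2(TPM + 0.1), voom with quality weights, RLE factors, no factors, a filter of at least 10 counts in each library, no filter at all, a replicate block, the GC offset alone and with the block, Control replicates 1 and 2 as 1 library, and each library left out. Simulated data for 13055 genes held the GC trend of each library. Of 99 genes changed by 1 on the log2 scale, edgeR called 72, and 93 with the GC offset, with 6 and 5 unchanged genes. The simulation put in the trend that the offset removes and drew counts with no gene-specific dispersion. These counts therefore give no error rate for the real data and cannot rank the fits there.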

Additional observations from a re-analysis of the deposited data

How the results depend on the processing

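Against 288 genes called by edgeR, DESeq2 called 744, voom with quality weights 8018, limma on log2(TPM + 0.1) 151, the GC content offset 966 (275 of them shared with the 288), the offset with the replicate block 702 and the merger of Control replicates 1 and 2 into 1 library 75. Leaving out 1 library gave 68 to 3726. Of the members, 3 were called, 4 with voom, which added MUC20 (log2 fold change 0.18, adjusted p = 0.00945), 2 with the merger, 1 with limma on log2(TPM + 0.1), which kept CLCA2, and 1 to 3 without 1 library. Of the other lists, 2 genes were called, against 6 with DESeq2, 56 with voom, 1 and 0 with limma on log2(TPM + 1) and log2(TPM + 0.1), 9 with the offset, 6 with offset and block, 0 with the merger and 0 to 25 without 1 library. In 2 analyses added after the data were seen, the offset without RC48 replicate 1 called 1675 genes and 14 of the lists, and RC48 replicate 2 alone called 609 and 6. MUC20 changed sign, to −0.02, under the offset, under offset and block, and under the offset without RC48 replicate 1. The causes of these differences were not tested. Deviations from the group mean correlated at 0.00204, −0.132 and 0.00478 between libraries with the same number, and at −0.112 to 0.131 between unlike numbers. The deviations of the RC48 libraries carry the GC trend, so these values cannot show whether the samples were paired. The replicate block called 331 genes, 3 of the members and 3 of the lists. The order of the member levels had 12 of 12 places in common without any 1 Control replicate or RC48 replicate 3, and 10 without RC48 replicate 1 (RC48 replicate 2 has no TPM here). Depth limits SPDEF and MUC4, whose counts of 4 to 12 per library could show large changes only.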

Other observations

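With the correction for GC content, 8 of the 91 genes tested in the 6 other lists were called higher in edgeR and 1, CLCA4, lower. Over all genes tested, 4.19% were called higher and 3.21% lower. Among the 8 was GALNT18, which was also called without the correction. The other genes called higher are named here after their values were seen. In the list of enzymes for O-linked sugars, GALNT5 was at 19.3 ± 0.690 CPM in Control and 26.2 ± 3.96 CPM after RC48 (corrected log2 fold change 0.75, adjusted p = 0.00444, edgeR, n = 3 each). ST6GAL1, a sialyltransferase of that list, was at 8.39 ± 1.58 and 14.4 ± 0.562 CPM (corrected 0.72, adjusted p = 0.0184, edgeR, n = 3 each). Whether ST6GAL1 acts on the sugars of mucins was not tested. GALNT1 had a corrected log2 fold change of 0.43 (adjusted p = 0.0112, edgeR) against 0.01 without the correction. ERP27, a non-catalytic relative of protein disulfide isomerase, was at 10.5 ± 1.46 and 16.6 ± 0.877 CPM (corrected 0.86, adjusted p = 0.0129, edgeR, n = 3 each). FCGBP, a protein of mucus, was at 0.699 ± 0.108 and 2.0 ± 0.770 CPM (corrected 1.15, adjusted p = 0.0332, edgeR, n = 3 each). MMP14, a membrane-bound protease that can shed MUC1, was at 481 ± 8.91 and 767 ± 158 CPM (corrected 0.37, adjusted p = 0.0206, edgeR, n = 3 each), and MET, the partner of MUC20, had a corrected log2 fold change of 0.33 (adjusted p = 0.0499, edgeR). None of these 7 was called in the edgeR fit of all 6 libraries with neither block nor correction. Other fits without the correction gave other counts of list genes. DESeq2 called 5 higher and 1 lower, and edgeR without RC48 replicate 1 called 6 higher and 2 lower. Voom called 29 higher and 27 lower, and edgeR without RC48 replicate 2 called 13 higher and 12 lower. Limma on log2(TPM + 1) called 0 higher and 1 lower.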
